A study of Homo sapiens with 14 samples.

Results

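The proteasome genes were taken as every gene in a deposited table of N6-methyladenosine (m6A) sites whose symbol starts with PSMA, PSMB, PSMC, PSMD, PSME or PSMG followed by a digit, without PSMB8. They held 483 of 407343 sites, under 44 of 13723 gene names. The choice used names and no measured value. PSMC3IP, a partner of recombinases in meiosis, and PSME3IP1, which binds the activator PSME3, match by name but are not parts of the proteasome. They stay in the counts and are described apart, which leaves 42 proteasome genes. None of PSMA8, PSMB3, PSMB9 and PSMB11 had a site in the table.

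m6A was read by GLORI, in which glyoxal and nitrite convert unmethylated adenosines of polyadenylated RNA so that they are sequenced as G, while methylated ones are still read as A. Each site thus has an m6A level, the percentage of A among its A and G reads. The 7 groups had 2 libraries each. CAOV3 cells had 1 µM STM3675 for 24 h, and the 6 lines A549, CAOV3, COV644, EFO21, OE21 and SKOV3 had the solvent DMSO for 24 h. CAOV3, COV644, EFO21 and SKOV3 are labelled as ovarian carcinoma, A549 as lung carcinoma and OE21 as oesophageal carcinoma. STM3675 is given by its code name only, in a series whose title concerns inhibition of METTL3. Each line stands for its tumour type alone, and no label says whether the 2 libraries of a group came from separate cultures. The p-values therefore concern the spread between these libraries only. For sites that spread was pooled over all sites, so a deeply read site can have a very small p-value although the 2 libraries of a group differ.

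The proteasome degrades proteins tagged with ubiquitin. Its 20S core is built of alpha rings, which gate the entrance, and beta rings, which hold the cutting sites. The 19S cap has a ring of ATPases that unfold substrates and non-ATPase subunits that bind and remove ubiquitin. Other activators can sit on the core in place of the cap, and chaperones assemble core and cap. m6A is written mostly by METTL3 with METTL14 at DRACH motifs (D is A, G or T, R is A or G, H is A, C or T), most densely in last exons around and after the stop codon. It is known to affect splicing, decay and translation of the RNA that carries it.

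The libraries held 14047302 to 28663588 A and G reads over all sites, of which 35038 to 71795 lay on the proteasome sites. The median was 24 to 55 reads per proteasome site, against 16 to 32 over all sites, and was higher at proteasome sites in every library. Reads without molecular identifiers are not independent molecules, so all intervals cover counting error only. Marker genes followed the line labels in part. ERBB2 had 4436 and 3709 CPM (A and G reads over its sites, scaled to the library) in SKOV3 and 56.0 to 158 in the other libraries. TP63 had 290 and 289 in OE21 and at most 2.79 elsewhere, and KRT5, KRT6A, DSG3 and SOX2 were also highest in OE21. PAX8, an ovarian marker, had 19.2 to 367 in the ovarian lines but also 26.2 and 19.4 in OE21. The lung marker NKX2-1 was at 0.0821 and 0.136 in A549, below the 22.7 and 17.2 in COV644, and the ovarian marker WT1 did not exceed 1.90 in the ovarian lines. These 2 markers were near 0 where the labels would place them. Among the other marker genes read, MSLN had 110 to 1436 in the ovarian lines CAOV3, COV644 and EFO21. It had at most 13.7 in SKOV3 and at most 2.25 in A549 and OE21. EMX2 had 43.5 and 41.6 in EFO21 and at most 0.346 elsewhere. AKR1B10 had 562 and 615 in A549, but also 444 and 537 in OE21, and at most 3.63 elsewhere. AKR1C1 had 506 and 554 in A549, below the 1155 and 909 in OE21. The coverage of METTL3 was 30.7 and 28.5 CPM with STM3675 and 25.8 and 28.6 with DMSO in CAOV3.

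DRACH motifs were less frequent among proteasome sites than in the table as a whole. DRACH sites numbered 138 of 483 proteasome sites (28.6%), against 156317 of 407343 sites (38.4%) in the whole table. By exon, 235 proteasome sites lay in last exons, 170 in internal exons and 78 in first exons. These are 48.7%, 35.2% and 16.1% of the proteasome sites, while the whole table had 53.3%, 39.6% and 5.05% of its sites with an exon in those 3 places. The DRACH share was 40.0% in last exons of proteasome genes, 19.4% in internal exons and 14.1% in first exons, against 46.6%, 26.6% and 29.0% in the whole table. Of the 138 DRACH sites, 94 were in last exons, 33 in internal exons and 11 in first exons.

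Every listed site had at least 20 reads and a level of at least 25% in 1 or more DMSO libraries. At 342 proteasome sites (70.8%) exactly 1 of the 12 DMSO libraries did so, against 68.2% in the whole table. All 12 libraries did so at 40 proteasome sites (8.28%), against 4.81%. These shares were not matched for read depth, which was higher at proteasome sites. Of these 40 recurrent sites 38 were DRACH and 36 lay in last exons, and they were spread over 18 genes.

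The number of sites differed widely between subunits. PSME4, the activator that caps the core in the nucleus, had 56 sites, of which 16 were DRACH, and PSME1 and PSME2, which form the interferon-inducible activator together, had 3 each. Among 19S non-ATPases PSMD12, a lid subunit, had 27 sites and PSMD14, the deubiquitinase of the lid, had 2. Among ATPases PSMC2, PSMC3 and PSMC4 had 16 each, and PSMC5 and PSMC6 had 5 each. PSMB2 had 18 sites and none was DRACH, while PSMB1 had 2 sites and both were. In the alpha ring PSMA4 had 10 sites and PSMA1 had 1. Among chaperones of the cap PSMD5 had 22 sites, 12 of them DRACH, and PSMD10 had 6, and among chaperones of the core PSMG4 had 17 and PSMG1 had 1. A DRACH site was listed for 34 of the 44 names. These numbers also move with read depth, since a site needs 20 reads to be listed.

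**Figure D1:**
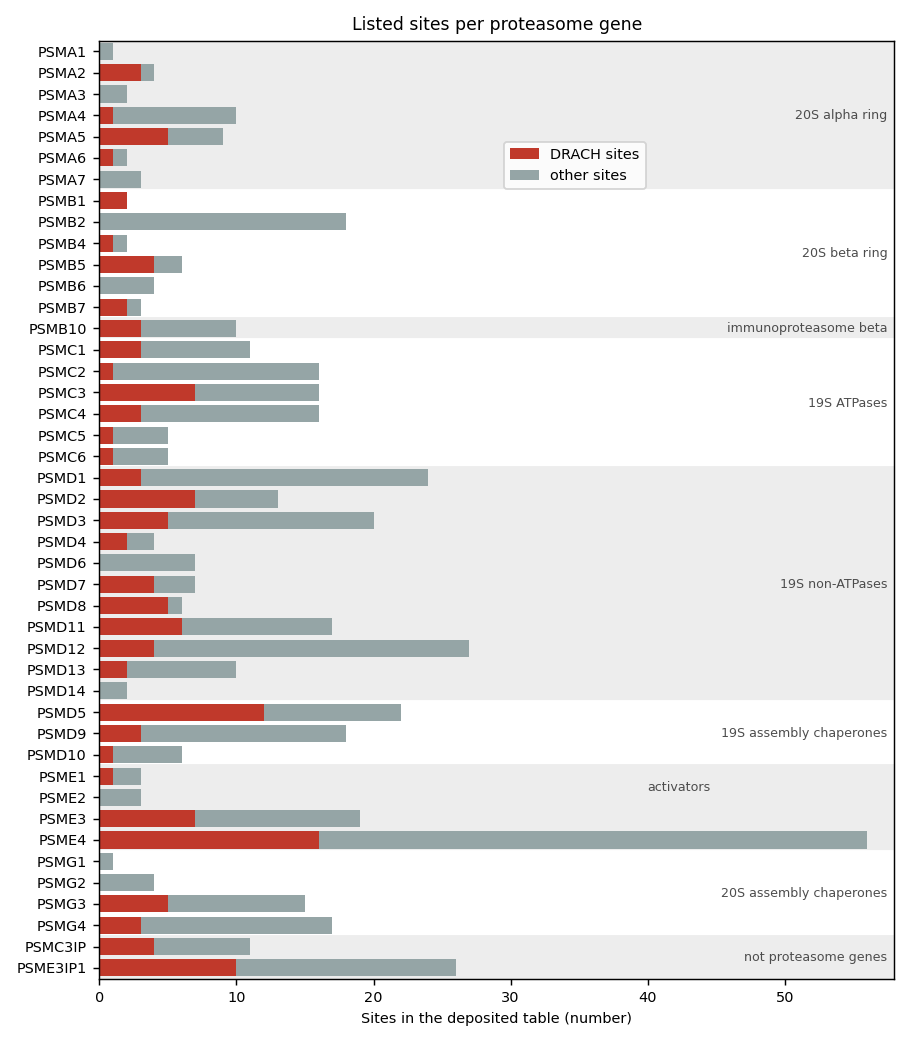
Number of listed sites (horizontal axis) for each gene name (vertical axis), grouped by role with shaded bands, with DRACH sites in red and all others in grey. PSME4 has 56 sites, and 10 of the 44 names have no DRACH site.

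The 5 largest falls described below were at these bases, 5′ to 3′, with the measured A in capitals, shown because 3 of the 5 share the same letters.
PSMD5: agAct
PSME4: gaAcc
PSMD7: agAct
PSMG3: agAct
PSMB5: ggAca
The adenosines lie at 9:120817820 (minus strand), 2:53865110 (minus), 16:74306071 (plus), 7:1567564 (minus) and 14:23026032 (minus) of GRCh38. Over the tested DRACH sites of proteasome genes in CAOV3, the mean level of the 18 agAct sites was 9.73% with STM3675 and 53.2% with DMSO. The 21 ggAca sites, the commonest motif, averaged 12.7% with STM3675 and 31.1% with DMSO. In the whole table the agAct sites averaged 11.5% with STM3675 and 51.0% with DMSO, and the ggAca sites 13.2% with STM3675 and 49.2% with DMSO. The ggAca sites of proteasome genes thus had a lower DMSO level than those of the table, and the agAct sites a similar one, with no test made of either difference.

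With STM3675 in CAOV3, m6A fell at most DRACH sites of proteasome genes, to a level near that of their non-DRACH sites. Averaged over the 116 tested DRACH sites, the level was 10.2% and 10.7% in the STM3675 libraries, against 34.0% and 36.8% in the DMSO libraries. The groups did not overlap, and the means were 10.4% ± 0.313 with STM3675 and 35.4% ± 2.03 with DMSO (SD, n = 2 each). At the 207 non-DRACH sites the means were 12.5% ± 0.385 with STM3675 and 14.1% ± 0.450 with DMSO. Over the whole table the DRACH means were 11.0% with STM3675 and 45.4% with DMSO, so proteasome DRACH sites had a lower mean level with DMSO and a similar one with STM3675.

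Sites were tested where all 4 CAOV3 libraries had at least 20 reads, with a quasi-binomial model fitted over the whole table, and were called at an adjusted p under 0.05. This held for 323 of the 483 proteasome sites, of which 116 were DRACH. The model called 82 of the 323 lower and 2 higher, where 34.8% of all tested sites were lower and 0.179% higher. Of the 116 DRACH sites, 77 were lower, where 73.3% of all tested DRACH sites were lower, so the share of proteasome DRACH sites that fell was near the background. The remaining 160 sites had too few reads for the test, 22 of them DRACH. DMSO libraries selected the listed sites, which favours sites that happened to read high with DMSO. Among the 270 tested sites that had also passed in another line, 77 were lower and 3 higher, where 39.2% of all such sites were lower and 0.424% higher.

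Most of the falls were in last exons. There 68 of 79 tested DRACH sites were lower, where 81.1% of all last-exon DRACH sites were, with a mean of 8.61% with STM3675 and 42.1% with DMSO. In internal exons 6 of 29 were lower (55.9% of all), with means of 14.5% with STM3675 and 19.05% with DMSO, and in first exons 3 of 8 were lower (54.8% of all), with 14.1% with STM3675 and 28.3% with DMSO. The whole table had means of 11.1% with STM3675 and 37.0% with DMSO at internal DRACH sites. Internal DRACH sites of proteasome genes therefore stood lower with DMSO than those of the table, without a test of that difference. Within last exons, 58 of the 94 listed DRACH sites (61.7%) lay within 400 nt of the exon start, against 34.9% in the whole table, and 15 lay beyond 1000 nt. A last exon holds no site beyond its length, for example 343 nt in PSMD2 and 3628 nt in PSMA4. Exon length was not matched in this comparison. With STM3675 the 53 tested sites within 400 nt averaged 8.54%, the 16 from 400 to 1000 nt 8.96% and the 10 beyond 1000 nt 8.41%. With DMSO these averages were 42.8%, 49.6% and 26.4%, so the level did not decline steadily with distance. In the whole table the DMSO averages were 51.0%, 51.9% and 44.2% in the same order of distance.

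**Figure D2:**
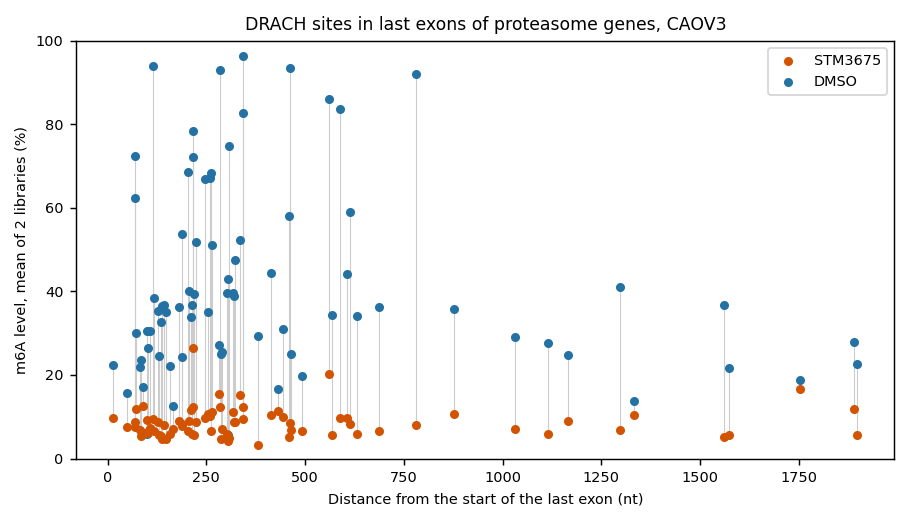
m6A level in percent (vertical axis, mean of 2 CAOV3 libraries) of the 79 tested DRACH sites in last exons of proteasome genes, against their distance in nt from the start of the exon (horizontal axis), with STM3675 in orange, DMSO in blue and a grey line joining the 2 values of a site. The STM3675 values lie low at all distances with a mean of 8.61%, while the DMSO values spread up to 96.3%.

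The 12 largest falls, 1 per gene and each with at least 50 reads in every CAOV3 library, were all in last exons. In PSMD5, a chaperone that holds part of the ATPase ring during assembly, the site at 9:120817820 read 10.2% and 8.94% with STM3675, against 95.5% and 97.0% with DMSO (adjusted p = 7.5e-62). It lies 343 nt into exon 10. In the same exon 12 DRACH sites were tested and 9 were lower, and 2 others had DMSO means of 93.8% (120818047, 9.40% with STM3675) and 86.2% (120817601, 20.1% with STM3675). The PSME4 site at 2:53865110 (gaAcc, exon 47) read 9.82% and 7.29% with STM3675, against 93.1% and 94.0% with DMSO (adjusted p = 6.0e-36). This was the shallowest of the 12, with 67 to 112 reads, and its 95% Wilson intervals were 5.57% to 16.7% and 3.58% to 14.3% with STM3675 and 84.8% to 97.0% and 85.6% to 97.7% with DMSO.

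PSMD7, the lid subunit that pairs with the deubiquitinase PSMD14, had 4 tested DRACH sites in its last exon and all were lower. The one at 16:74306071 read 7.45% and 8.46% with STM3675, against 91.6% and 92.4% with DMSO (adjusted p = 1.8e-267, 407 to 926 reads). In PSMG3, a chaperone of the core, the site at 7:1567564 read 11.2% and 13.2% with STM3675, against 93.6% and 92.4% with DMSO (adjusted p = 2.4e-73). In PSMB5, which carries the chymotrypsin-like cutting site, the site at 14:23026032 read 13.5% and 11.4% with STM3675, against 80.7% and 84.6% with DMSO (adjusted p = 1.4e-291, 933 to 1235 reads). All these groups stood far apart relative to the difference between the 2 libraries of a group.

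The other sites of the 12 had DMSO means of 58.1% to 78.5% and STM3675 means of 5.25% to 12.2%. PSMD8, a lid subunit, had 11.6% and 12.8% with STM3675 at 19:38383469 (ggAct), against 78.1% and 78.9% with DMSO (adjusted p = 7.9e-118). PSMD2, a large subunit that binds ubiquitin-like domains, had the deepest site, 3:184308911 (gaAct, exon 21), with 6.29% and 6.72% with STM3675, against 68.0% and 69.1% with DMSO over 2384 to 3735 reads. PSMD11, a lid subunit, had 6.46% and 4.03% with STM3675 at 17:32481213 (agAct), against 52.4% and 63.8% with DMSO (adjusted p = 1.9e-89), the widest spread between DMSO libraries of the 12. The lid subunits PSMD13 (ggAct at 11:252751) and PSMD12 (agAct at 17:67340792) and the nuclear activator PSME3 (agAct at 17:42841567) had means of 9.73%, 10.2% and 7.54% with STM3675 and 66.9%, 67.0% and 62.4% with DMSO. In PSME3IP1 (ggAcc at 16:57154244) the means were 6.54% with STM3675 and 68.4% with DMSO.

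The ratio of STM3675 to DMSO levels varied between sites. At the 25 proteasome sites with a DMSO level of at least 50% and at least 50 reads in each library, the ratio of STM3675 to DMSO levels ran from 0.0668 to 0.290 with a median of 0.139, and the median over the 16568 such sites of the table was 0.152. The highest ratio, 0.290, was at a tgAca site of PSME3IP1 (16:57154171), with 18.2% and 12.2% with STM3675, against 51.6% and 53.3% with DMSO. The next, 0.259, was at a site of PSMD9, a chaperone of the ATPase ring, that is not DRACH (ggAtt at 12:121916554), with 25.6% and 12.3% with STM3675, against 77.4% and 69.3% with DMSO. PSMD5 at 9:120817601 (ggAca) followed with 0.234, on 14.5% and 25.8% with STM3675, against 86.8% and 85.5% with DMSO. The STM3675 libraries differed widely from each other at the PSMD9 and PSMD5 sites, so these ratios are imprecise. PSMA4 (ggAca at 15:78549055) had a ratio of 0.217 on firmer data, with 12.1% and 10.1% with STM3675, against 49.6% and 52.6% with DMSO over 1683 to 2029 reads. An internal site of PSME4 (agAct at 2:53931967, exon 10) and a first-exon site of PSMB5 (ggAct at 14:23034822) had 0.175 and 0.172. The STM3675 means of these PSMA4, PSME4 and PSMB5 sites were 11.1%, 9.83% and 8.67%. They lay below the mean of 12.5% at non-DRACH proteasome sites with STM3675, so their ratios are no measure of retained m6A.

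Of the 207 tested non-DRACH sites, 5 were lower and 1 higher, where 7.51% of all non-DRACH sites were lower and 0.283% higher. Beside the PSMD9 site, they were 2 ggAtt sites of PSME4 in exon 47 and a ggAcg site of PSMA4, an alpha-ring subunit, with means of 9.46%, 11.96% and 7.90% with STM3675 and 42.0%, 27.7% and 36.6% with DMSO. Each misses DRACH at a single base. The weaker of both PSME4 sites, at 2:53865037, lost its call under limma and in 3 of the 4 fits that left out a library. The fifth, a tgAga site of PSME4 (2:53931869), read 1.39% and 2.33% with STM3675, against 25.6% and 5.56% with DMSO (adjusted p = 0.033). Its fall rests on the first DMSO library, since the difference was -3.70 percentage points without it, against -13.7 with it. The site was also listed through that DMSO library alone, which favoured this call, so the call is no support for a fall.

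The 2 sites called higher were weakly supported. A ggAcg site in the first exon of PSMD2 (3:184299340) read 35.7% and 36.1% with STM3675, against 12.8% and 13.0% with DMSO (adjusted p = 0.036), over 28 to 46 reads. Its 95% Wilson intervals were 20.7% to 54.2% and 22.5% to 52.4% with STM3675 and 5.60% to 26.7% and 6.12% to 25.7% with DMSO. A tgAcc site of PSMC3 (11:47420345), an ATPase, read 19.4% and 21.1% with STM3675, against 7.51% and 13.3% with DMSO (adjusted p = 0.010). The PSMD2 site lost its call when any 1 of the 4 libraries was left out, and the PSMC3 site when any but the second DMSO library was. Neither was called with the replicate number as a block.

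Summed over the tested sites of each gene, m6A fell in 26 of the 44 and rose in none, where 81.7% of all 11221 genes tested were lower and 0.0535% higher. At an unadjusted p under 0.05 the quasi-binomial model also put 0 of the 44 higher, and limma on mean site levels put 22 lower and 0 higher. The median difference was -12.7 percentage points over the 44 names and -20.1 over all genes. PSMD7 fell most, with 8.04% and 8.61% with STM3675, against 55.1% and 62.6% with DMSO (adjusted p = 5.8e-16). PSMB5 had 10.1% and 9.83% with STM3675, against 49.9% and 55.0% with DMSO, and PSMD2 had 8.69% and 9.34% with STM3675, against 49.4% and 52.4% with DMSO.

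**Figure D3:**
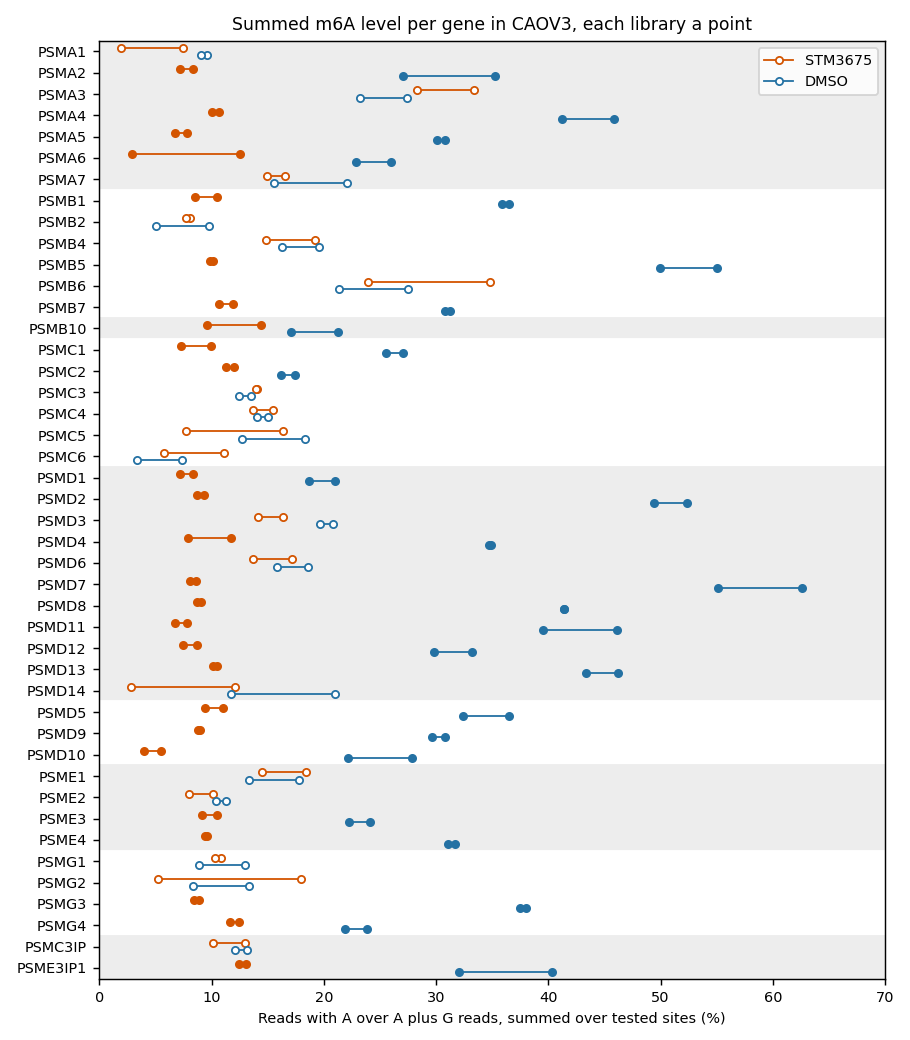
Summed m6A level in percent (horizontal axis) of each gene (vertical axis, shaded by role) in the 2 STM3675 libraries (orange) and the 2 DMSO libraries (blue) of CAOV3, with lines joining libraries of a group and filled points for the 26 genes called lower. PSMD7 stands highest with DMSO at 55.1% and 62.6%, while most ATPase genes lie below 20% in every library.

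The roles differed in how much m6A there was to lose. The ATPases were least methylated: their 15 tested DRACH sites averaged 11.7% with STM3675 and 17.1% with DMSO, and 3 were lower. All 7 tested DRACH sites of PSMC3 lay in internal exons and averaged 15.2% with STM3675 and 14.2% with DMSO. The 6 sites of core chaperones averaged 14.5% with STM3675 and 50.7% with DMSO, and 5 were lower. Means with STM3675 and with DMSO were 9.21% and 41.3% over 16 sites of cap chaperones (13 lower), 12.7% and 40.8% over 9 sites of the beta ring (7 lower) and 9.94% and 38.9% over 31 sites of 19S non-ATPases (23 lower). They were 9.66% and 36.6% over 18 sites of activators (12 lower) and 7.44% and 31.7% over 6 sites of the alpha ring (6 lower). PSMB10, which replaces a beta subunit in the immunoproteasome, had 2 tested DRACH sites, with 11.7% with STM3675 and 22.5% with DMSO. By gene, 4 of 7 alpha, 3 of 6 beta, 2 of 6 ATPase, 8 of 11 non-ATPase, 3 of 3 cap chaperone, 2 of 4 activator and 2 of 4 core chaperone genes were lower. PSMC3IP was not called, with 11.5% ± 1.99 with STM3675 and 12.6% ± 0.720 with DMSO (SD, n = 2 each), and PSME3IP1 was lower, with 12.8% ± 0.452 with STM3675 and 36.2% ± 5.87 with DMSO.

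Other genes of the ubiquitin and proteasome pathway were read from a list of 30, of which 29 were tested. Of these, 23 were lower in summed m6A and 0 higher, with a median difference of -19.0 percentage points, beside 81.7% of all genes lower. NFE2L1, the transcription factor that drives proteasome genes when proteasome activity is low, had 12.4% ± 0.0242 with STM3675 and 54.9% ± 1.14 with DMSO (SD, n = 2 each). RAD23B, a shuttle that brings ubiquitinated proteins to the cap, had 9.39% ± 0.356 with STM3675 and 49.5% ± 4.45 with DMSO. At the other end UBA1, the ubiquitin-activating enzyme, had 14.7% ± 0.345 with STM3675 and 13.3% ± 0.238 with DMSO, and RPS27A, which encodes ubiquitin fused to a ribosomal protein, had 16.1% ± 3.76 with STM3675 and 15.4% ± 0.835 with DMSO. Neither UBA1 nor RPS27A was called. The smallest falls among genes called lower were those of UBLCP1 (-6.99 percentage points) and USP14 (-10.4), phosphatase and deubiquitinase of the proteasome.

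A few listed adenosines sit at the very start of a transcript, where the base next to the cap can carry m6Am, a mark made by PCIF1 and not by METTL3. RefSeq promoter sequences (GRCh38.p14) were matched for 38 of the 44 names, and at all 13 listed sites within them the 5 bases of the table were the same as in RefSeq. In 3 genes the listed adenosine is the first base of a RefSeq transcript. The windows below hold the 15 bases before that base and the 14 after it, with the listed adenosine in capitals.
PSMA5: cgcggtcgcacgcgcAgttggtccttagta
PSMC3: tggaatcggagaggcAgattcgctgctccg
PSMA4: gcatgcgcgggggccAtattagcagcggtt
They are chr1:109426434-109426463 (minus strand), chr11:47426425-47426454 (minus) and chr15:78540429-78540458 (plus). None of the 3 has DRACH letters at the adenosine. From another RefSeq start of PSMA4 the adenosine lies 39 nt downstream, so its place next to the cap is not certain. The PSMA5 site was shallow, with at most 24 reads, where SKOV3 read 62.5% (95% Wilson interval 42.7% to 78.8%). The PSMA4 site read 27.8% and 11.3% with STM3675 (54 and 62 reads), against 21.1% and 26.3% with DMSO (71 and 76 reads) in CAOV3, and the groups overlapped (adjusted p = 0.68). The PSMC3 site read 7.50% and 7.69% with STM3675, against 3.64% and 15.8% with DMSO (adjusted p = 0.85). Both sites were already low with DMSO, so neither had room for a fall of the mean size at DRACH sites. With 26 to 76 reads smaller differences could not be detected. These values therefore cannot tell whether STM3675 changes the level of such adenosines.

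Read coverage, the A and G reads summed over the listed sites of a gene and scaled to the library, was lower with STM3675 for most proteasome genes. edgeR's quasi-likelihood test with Benjamini-Hochberg adjustment called 28 of the 44 lower and 3 higher, where 25.7% of all 12826 genes were lower and 27% higher. The median log2 fold change, STM3675 over DMSO, was -0.45 over the 44 names and -0.01 over all genes. Both STM3675 libraries lay below both DMSO libraries in 32 of the 44, as they did for 38.9% of all genes. A read can cover several listed sites, so this is no count of molecules, and in bulk RNA fewer cells of a kind and less RNA per cell cannot be told apart. The summed sites were listed through DMSO libraries only, in all genes alike. Coverage was not refitted on sites that passed in another line. The count fell to 14 and 15 without the first and second STM3675 library, when 12.8% and 12.4% of all genes were lower, and to 8 when the median over sites replaced the sum, when 6.80% were. The median log2 fold change stayed between -0.38 and -0.51 in all these fits.

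PSMD14, the lid deubiquitinase, had 2.38 and 2.46 CPM with STM3675, against 4.66 and 5.56 with DMSO, a log2 fold change of -1.08 ± 0.24 (SE; adjusted p = 0.0035). PSMC4, an ATPase, had 30.2 and 32.3 with STM3675, against 60.2 and 65.4 with DMSO, or -1.01 ± 0.09 (adjusted p = 1.4e-05). PSMB6, with the caspase-like cutting site, had 7.18 and 8.50 with STM3675, against 13.7 and 17.4 with DMSO, or -0.99 ± 0.17 (adjusted p = 0.00082). In none of these 3 did the groups overlap, and all 3 kept their call without any 1 library, although PSMC4 lost it when the median over sites was used (-0.74).

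PSMB1, a beta subunit, had 99.9 and 103 CPM with STM3675, against 213 and 153 with DMSO (-0.85 ± 0.13, adjusted p = 0.00036), and PSMC3 had 155 and 153 with STM3675, against 249 and 286 with DMSO (-0.80 ± 0.08, adjusted p = 2.8e-05). PSMA1, an alpha subunit, was read at 1 site only, with 1.99 and 1.28 with STM3675, against 2.85 and 3.03 with DMSO (-0.83 ± 0.31, adjusted p = 0.043). Its call was lost without either STM3675 library or without the second DMSO library. Of the 28 lower genes, 14 kept their call in each of the 4 fits without 1 library.

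The 3 genes called higher were PSMB10, PSMG4 and PSMD7. The immunoproteasome subunit PSMB10 had 30.6 and 36.9 CPM with STM3675, against 22.0 and 22.6 with DMSO (0.60 ± 0.12, adjusted p = 0.0022), and its call was lost without the second STM3675 library. PSMG4, a core chaperone, had 34.5 and 34.8 with STM3675, against 24.3 and 30.0 with DMSO (0.35 ± 0.12, adjusted p = 0.029). PSMD7 had 106 and 118 with STM3675, against 92.4 and 98.6 with DMSO (0.23 ± 0.08, adjusted p = 0.041), but -0.12 when only non-DRACH sites were summed. With the median over sites none of the 3 was called. PSMG4 and PSMD7 lost their calls without either STM3675 library, and PSMG4 also without the first DMSO library.

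**Figure D4:**
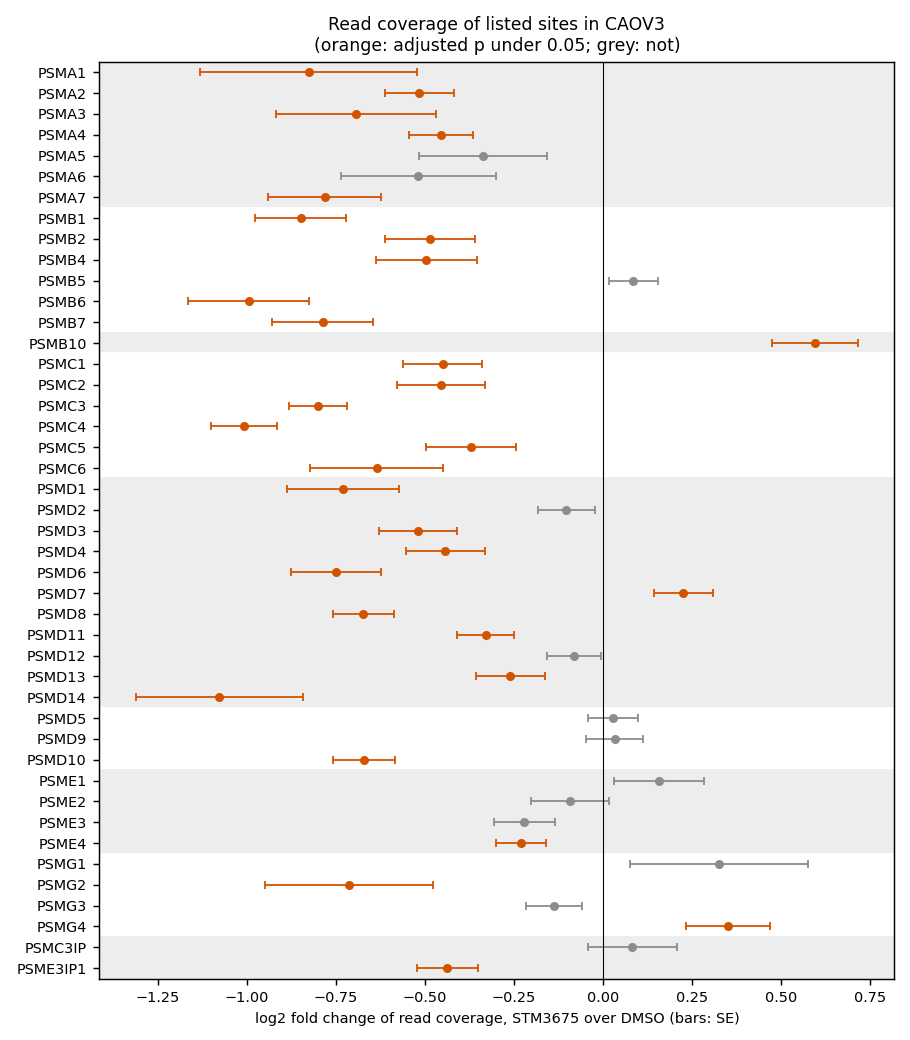
log2 fold change of read coverage, STM3675 over DMSO in CAOV3 (horizontal axis, bars are SE), for each gene (vertical axis, shaded by role), in orange where the adjusted p was under 0.05. All 6 ATPases lie left of 0, from -1.01 to -0.37, and PSMB10 lies farthest right at 0.60.

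By role, all 6 ATPases were lower in coverage, with log2 fold changes of -1.01 to -0.37, as were 5 of 7 alpha-ring genes, 5 of 6 beta-ring genes and 8 of 11 non-ATPases. The medians were -0.54, -0.52, -0.64 and -0.44 in these 4 roles. Of the assembly chaperones 1 of 3 for the cap and 1 of 4 for the core were lower, as was 1 of 4 activators, with medians of 0.03, 0.10 and -0.16. Of the 29 genes tested from the wider list 16 were lower and 1 higher, with a median of -0.30. All these counts stand beside 25.7% of all genes lower and 27% higher.

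Lower coverage was seen among genes with and without a fall in m6A. Of the 26 genes lower in m6A, 14 were lower and 3 higher in coverage, with a median log2 fold change of -0.33. Of the other 18, 14 were lower and 0 higher, with a median of -0.66. Of all genes with both measures, 24.1% of those lower in m6A and 39.8% of the others were lower in coverage, and the medians were 0.03 for the 9166 genes lower in m6A and -0.26 for the other 2055. Genes without an m6A fall thus had the lower median in the table as well. The 10 names without a tested DRACH site had a median of -0.73, against -0.25 for the 1012 such genes of the table.

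Among the 6 lines with DMSO, the mean m6A level of proteasome DRACH sites differed by at most 7.71 percentage points. Over the 94 DRACH sites with at least 20 reads in all 12 libraries, the levels were 36.8% and 39.3% in CAOV3, 34.9% and 36.8% in EFO21, 34.8% and 35.1% in A549, 34.4% and 35.1% in SKOV3, 33.5% and 33.5% in COV644, and 29.8% and 30.9% in OE21. The lower CAOV3 library and the higher EFO21 library were both at 36.8%, the A549, SKOV3 and EFO21 libraries overlapped, and the OE21 libraries lay below all others. The level of the 89 non-DRACH sites was 6.86% ± 0.811 in COV644 and 7.24% ± 0.458 in OE21, against 13.6% to 16.6% in the other 4 lines (SD, n = 2 each). When the median non-DRACH level of each library was subtracted, the order changed: COV644 was highest at 29.3%, followed by CAOV3 at 27.1%, OE21 at 26.1%, A549 at 24.4%, EFO21 at 23.6% and SKOV3 at 22.0%.

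Individual sites differed more. Of 183 proteasome sites tested over the 12 libraries, 97 differed among lines, where 39.5% of all 68873 tested sites did. Of the 94 DRACH sites 55 did, where 39.1% of all DRACH sites did. Listed proteasome sites were read more deeply than those of the table, and these shares were not matched for depth. The median range of line means over DRACH sites was 13.1 percentage points for proteasome genes and 14.7 for the table. Since 1 DMSO library is enough to list a site, sites that happened to read high in 1 line are favoured, in proteasome genes and in the whole table. The model gives all sites 1 common spread, and limma on unweighted levels, which lets each site have its own, called 7 of the 183 and 1.37% of all sites.

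Against the mean of the other 5 lines, CAOV3 was higher at 22 of the 94 DRACH sites and lower at 1, where 19% of all DRACH sites were higher and 0.469% lower. OE21 was higher at 1 and lower at 21, beside 0.844% and 11.8% of all. COV644 was higher at 4 and lower at 8 (7.05% and 3.84% of all), EFO21 at 9 and 2 (2.35% and 2.97%), A549 at 8 and 3 (2.73% and 3.31%), and SKOV3 at 6 and 7 (2.29% and 4.59%). At the 89 non-DRACH proteasome sites COV644 and OE21 were each lower at 8 and higher at none, where 6.57% and 8.82% of all non-DRACH sites were lower, so these counts were near the background. EFO21 was higher at 12, SKOV3 at 11, CAOV3 at 8 and A549 at 3, beside 6.35%, 13%, 9.12% and 2.59% of all, and none of these 4 lines was lower at any. The part of the non-DRACH level in the DRACH differences was not tested beyond the subtraction above.

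The widest range among deep sites was that of the last-exon site of PSMD2 (3:184308911), which also fell with STM3675. Its level was 28.8% and 28.2% in A549, 37.1% and 40.9% in COV644, 39.5% and 40.3% in SKOV3, 55.7% and 57.4% in EFO21, 68.0% and 69.1% in CAOV3, and 67.9% and 70.3% in OE21, over 827 to 2886 reads (adjusted p = 5.4e-235). COV644 and SKOV3 could not be told apart, nor could CAOV3 and OE21, and the other steps exceeded the spread within lines. OE21, the line with the lowest mean over the 94 sites, was among the highest here.

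Other DRACH sites had smaller ranges. PSMD11 at 17:32480498 (ggAcc, exon 13) averaged 47.0% ± 5.10 in COV644, 42.8% ± 3.31 in CAOV3, 39.4% ± 0.359 in EFO21, 32.8% ± 0.231 in A549, 30.5% ± 0.330 in SKOV3 and 25.9% ± 0.428 in OE21 (SD, n = 2 each; adjusted p = 0.00017). PSME3IP1 at 16:57153900 (ggAca) averaged 44.1% ± 4.21 in CAOV3 and 22.9% to 32.2% in the other 5 lines (adjusted p = 0.0096), and the call was lost without the second CAOV3 library. PSMD1, a large scaffold subunit of the cap, averaged 39.3% ± 6.85 in CAOV3 and 19.5% ± 5.87 in OE21 at 2:231172755 (ggAca, adjusted p = 0.034). That call was lost without the second A549, the second CAOV3, the second COV644 or either OE21 library. limma did not call the PSMD11, PSME3IP1, PSMD1 and PSME1 sites.

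The other 4 of the 8 widest ranges were at sites where COV644 and OE21 stood below the other lines, as the non-DRACH mean does. PSME4 at 2:53865364 (tgAtc, not DRACH) averaged 11.4% ± 1.17 in COV644 and 15.5% ± 7.35 in OE21, against 35.2% to 41.5% in the other lines (adjusted p = 5.0e-16). It was 34.8% ± 1.70 with STM3675 and 35.2% ± 2.58 with DMSO in CAOV3 (adjusted p = 1.0). PSMB6 at 17:4798464 (tgAtg, not DRACH) averaged 9.10% ± 2.13 in COV644 and 7.97% ± 2.92 in OE21, against 23.6% to 31.3% (adjusted p = 1.6e-11). The internal ggAca sites of PSME1 (14:24137370) and PSMD3 (17:39989761), a lid subunit, averaged 14.0% and 9.55% in COV644 and 9.85% and 4.60% in OE21, against 20.8% to 31.8% and 18.7% to 23.8% in the other lines. Neither was called with STM3675, and PSME1 read 20.4% ± 4.15 with STM3675 and 20.8% ± 2.05 with DMSO. The PSMD3 site was listed through 1 library only, the first DMSO library of CAOV3 at 25.0%. CAOV3 was also its highest line, and whether the listing widened its range was not tested.

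**Figure D5:**
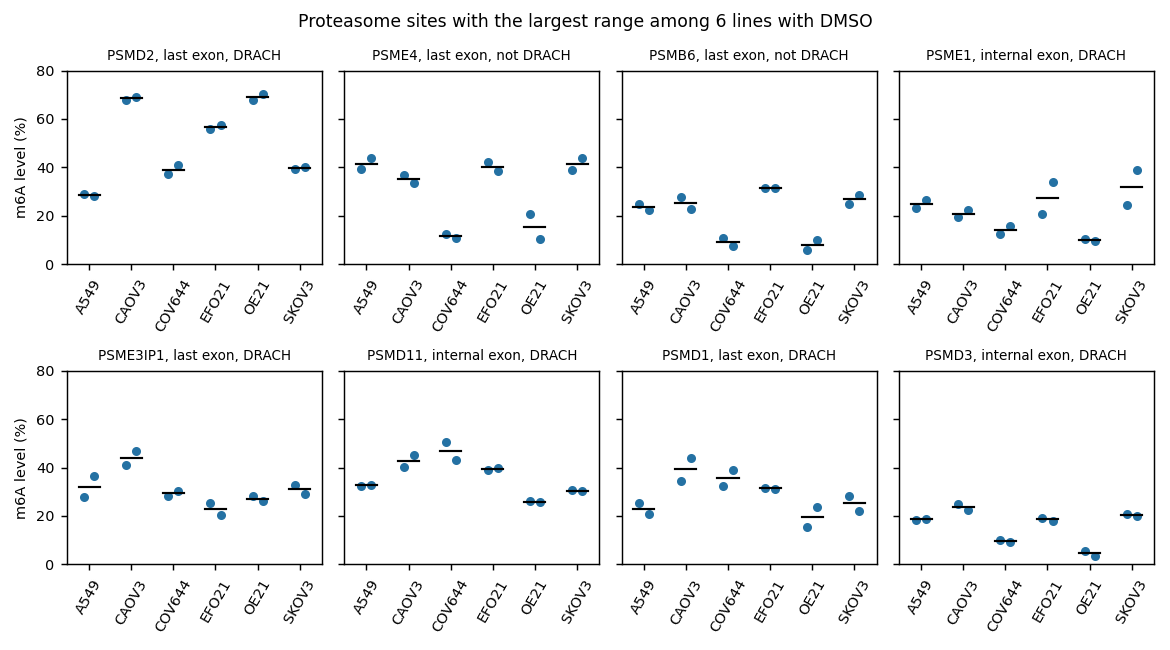
m6A level in percent (vertical axis) of the 8 proteasome sites with the widest range of line means, 1 panel per site, in the 2 DMSO libraries of each line (points, with a bar at the mean; horizontal axis: the 6 lines). PSMD2 runs from 28.5% in A549 to 69.1% in OE21, while in PSME4, PSMB6, PSME1 and PSMD3 the lines COV644 and OE21 are the 2 lowest.

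Read coverage differed among the lines in 41 of the 44 genes, where 99.1% of all 13704 genes did, so a difference as such says little. The exceptions were PSMA1, PSMD4 and PSMD14. The median range of line means was 1.36 on the log2 scale for proteasome genes and 2.16 over all genes. COV644 was lower than the mean of the other 5 lines in 24 genes and higher in 9, where 35.1% of all genes were lower and 39.6% higher, with a median log2 difference of -0.41 (all genes, -0.0048). A549 was higher in 19 and lower in 8 (37.2% and 32% of all), with a median of 0.29 (all genes, 0.02). CAOV3 was higher in 17 and lower in 11 (39.8% and 34.1%), OE21 in 16 and 13 (39.1% and 35.9%), SKOV3 in 13 and 9 (38.2% and 32.5%), and EFO21 in 12 and 15 (38.5% and 33.7%), with medians between -0.04 and 0.07.

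PSMC3 had the widest range, with 243 and 278 CPM in CAOV3, 62.4 and 73.8 in A549, 67.1 and 48.8 in SKOV3, 42.9 and 48.5 in COV644, 32.4 and 35.1 in OE21, and 32.4 and 25.1 in EFO21 (adjusted p = 1.7e-10). CAOV3 stood above all other lines, while A549 overlapped SKOV3 and OE21 overlapped EFO21, with COV644 between these pairs. PSMG3 had 181 and 212 in OE21, 152 and 155 in COV644, 88.3 and 109 in A549, 64.7 and 63.3 in CAOV3, 38.5 and 35.3 in EFO21, and 28.6 and 23.6 in SKOV3 (adjusted p = 7.3e-11), with no overlap between neighbours.

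The other 6 of the 8 widest ranges were 2.14 to 2.47 on the log2 scale. PSMG2, a core chaperone, averaged 14.6 ± 2.50 CPM in COV644 and 2.65 ± 0.727 in A549 (SD, n = 2 each). PSME2, of the interferon-inducible activator, averaged 24.0 ± 1.10 in CAOV3 and 21.1 ± 2.28 in OE21, and at most 13.9 ± 0.320 elsewhere, with 4.47 ± 0.310 in COV644. PSMB5 had 277 and 340 in A549 and 46.5 and 70.6 in COV644, and PSMC5, an ATPase, averaged 22.3 ± 1.68 in A549 and 5.19 ± 1.76 in COV644. PSMA2, an alpha subunit, went the other way, with 97.9 ± 6.97 in COV644 and 20.1 ± 0.173 in SKOV3, and PSMC2, an ATPase, had 109 ± 26.3 in OE21, 105 ± 24.3 in COV644 and 23.4 ± 0.178 in A549. COV644 had the lowest mean for PSME2, PSMB5 and PSMC5 and the highest for PSMG2 and PSMA2, though its PSME2 and PSMC5 means were within the spread of those of EFO21 (4.53 ± 0.580 and 5.87 ± 0.429).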

How the data were processed

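GLORI libraries of polyadenylated RNA were examined for 6 lines with DMSO and for CAOV3 with STM3675, 14 libraries in all. Cutadapt, STAR and GRCh38 are named per the submitters' processing notes; their versions and the site caller were not given in the sources used here. For each site and library the authors deposited 2 values: the A plus G read count and the A fraction. Multiplying them gave whole numbers within 1e-06 everywhere, which were taken as A counts. D in a column name was taken to mean DMSO and T treated. Gene, exon and motif are those of the deposited table. 0 columns of values were left unused.

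Sites with at least 20 reads in each library compared were fitted over the whole table with a quasi-binomial model in R 4.3.3, with dispersion moderated by limma 3.58.1 (common values 1.75 in CAOV3 and 1.71 among lines) and Benjamini-Hochberg adjustment. Genes were tested on A and G counts summed over tested sites. Coverage was tested with edgeR 4.0.16 (TMM, quasi-likelihood), and CPM were computed with the same scaling over the libraries compared, so CAOV3 values differ slightly between the comparisons. DESeq2 1.42.0, limma, other read minimums, the replicate block and leaving out libraries were alternatives. Tables and plots were made with Python 3.11.15 (matplotlib 3.10.9, pandas 2.3.3) and the R package data.table (1.17.8). In simulated CAOV3 data of 185923 sites, the model recovered 77% of changes to 0.5 times the level and 100% of changes to 0.25 times. The changed sites were drawn only from deeply read sites with a high level. Since the 116 tested DRACH sites of proteasome genes had a median DMSO level of 30.2%, these shares do not hold for most of them. Recovery at lower levels or depths was not tested.

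Members and lists were chosen with earlier results of these data known. Named by rule were the 12 largest falls of DRACH sites and the 8 widest ranges among lines (1 per gene, at least 50 reads), the 6 highest ratios, all sites called higher, the 6 largest coverage changes in each direction, the 8 widest coverage ranges, the 2 largest and 2 smallest falls of the wider list, and the genes with most and fewest sites of each role. The sites at transcript starts, the other PSMD5 and PSMC3 sites, the called non-DRACH sites, UBA1 and RPS27A were named after their values were seen.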

Additional observations from a re-analysis of the deposited data

How the results depend on the processing

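The fall in m6A with STM3675 was seen under all alternatives, which tested unlike numbers of sites. Proteasome sites called lower numbered 82 of 323, and 68 to 83 under other read minimums (10 and 50), limma, the replicate block and sites that passed in another line. DRACH sites called lower numbered 77 of 116, and 65 to 78. At 10 reads 83 of 429 sites were lower (76908 of 283254 in the whole table), and at 50 reads 72 of 153 (37116 of 64491). Leaving out 1 library gave 65 to 77 sites and 61 to 73 DRACH sites, and 64 of the 82 kept their call in all 4 such fits. Genes lower in summed m6A numbered 26 of 44, and 22 to 27 under the alternatives with all 4 libraries. At 50 reads 25 of 36 genes were lower (7370 of 8739 in the whole table), and on DRACH sites only 27 of 34 (9303 of 10209). The mean difference at DRACH sites was -24.96 percentage points, -29.1 at 50 reads and -31.0 with reads summed over sites. Coverage depended on processing more: 31 genes changed and 28 were lower, but with the median over sites 8 changed and 8 were lower, and leaving out 1 library gave 15 to 33 changed and 14 to 31 lower. With 1 STM3675 library left, it is assumed to vary like the DMSO libraries. For PSMD7 coverage the log2 fold change of 0.23 became -0.12 on non-DRACH sites, and the cause was not tested. Sites differing among lines numbered 97, but 55 at 50 reads (71 tested), 7 under limma and 62 with the fit on DRACH sites only (94 tested), and 71 to 114 without 1 library. The highest minus the lowest line mean was 7.71 percentage points, and 4.25 with reads summed over sites. The same replicate numbers were not taken as pairing: the correlation of same-numbered deviations was -0.00253 for m6A levels and -0.0126 for coverage, over 2 pairs. With the replicate block 76 sites were lower, 73 of them DRACH, none of the proteasome sites was higher (2 without it), 26 genes were lower in m6A, 31 genes changed in coverage and 101 sites differed among lines. Depth limits the 160 proteasome sites with under 20 reads in a CAOV3 library, which were not tested.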
